A study of Rattus norvegicus with 99 samples.

Results

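The 9 genes described here mark macrophages of the rat heart. They were taken from the whole-heart count table by gene symbol (Cd68, Cd163, Mrc1, Csf1r, Lyz2, C1qa, C1qb, C1qc and Adgre1), and all 9 were among its 17337 genes. The table held poly(A) RNA-seq counts from 33 rats, all males bred from Wistar Kyoto and Lewis parents (F1), with 1 library each from the left ventricle (LV), the septum (Spt) and the right ventricle (RV), 99 libraries in all. A clip had been placed around the pulmonary artery (PAB, pressure load on the RV) or the aorta (AOB, pressure load on the LV). It did not constrict the vessel when placed and tightened it as the animal grew, and sham animals were operated without this constriction. At the compensated stage, after 7 weeks of treatment and at 11 weeks of age, the groups were Sham-H, PAB-H and AOB-H, with 7 rats in each. At the failure stage there were 3 PAB-F and 2 Sham-RF animals, treated for 21 weeks and 27 weeks old, and 4 AOB-F and 3 Sham-LF animals, treated for 24 weeks and 30 weeks old. PAB-H and AOB-H were compared with the same 7 Sham-H animals. The study's text gives other ages at surgery than the sample labels, whose values are used here.

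Macrophages live in the healthy heart among cardiomyocytes, vessels and fibroblasts, where they clear dying cells and cell debris, and monocytes that enter the tissue after injury or overload can add to them. CSF-1 and IL-34 keep macrophages alive through one receptor, CSF1R. The scavenger receptors CD163, which takes up haemoglobin bound to haptoglobin, and MRC1, the mannose receptor CD206, are used as markers of long-resident cardiac macrophages. Cd68, a lysosomal glycoprotein, Adgre1, which encodes the surface receptor F4/80, Csf1r and Lyz2, a lysozyme that cleaves bacterial cell walls, are general markers, and Lyz2 is also abundant in monocytes and neutrophils. C1qa, C1qb and C1qc encode the chains of C1q, which starts the classical complement pathway and which tissue macrophages secrete.

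The promoters of a pair of general markers, of a C1q chain and of the scavenger receptor that followed the other genes least are shown because these genes recur in the results. The windows run from 250 bases before to 50 bases after the RefSeq start site (build GRCr8), in lower case, with capitals for GAGGAA or its reverse complement TTCCTC, the core of sites bound by the myeloid factor PU.1.
Cd68 (chr10:54882392-54882691, minus strand): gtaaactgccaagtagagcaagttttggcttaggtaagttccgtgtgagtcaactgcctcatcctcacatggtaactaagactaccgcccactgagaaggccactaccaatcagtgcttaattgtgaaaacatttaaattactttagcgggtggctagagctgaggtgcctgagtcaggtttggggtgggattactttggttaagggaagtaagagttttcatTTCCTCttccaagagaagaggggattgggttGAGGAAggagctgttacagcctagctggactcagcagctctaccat
Lyz2 (chr7:54797962-54798261, minus strand): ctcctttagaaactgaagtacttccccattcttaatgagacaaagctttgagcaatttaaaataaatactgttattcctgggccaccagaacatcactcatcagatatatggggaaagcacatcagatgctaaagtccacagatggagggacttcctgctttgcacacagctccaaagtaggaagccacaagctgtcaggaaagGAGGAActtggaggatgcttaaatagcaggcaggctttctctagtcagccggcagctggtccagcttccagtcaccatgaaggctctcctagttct
C1qb (chr5:154407778-154408077, minus strand): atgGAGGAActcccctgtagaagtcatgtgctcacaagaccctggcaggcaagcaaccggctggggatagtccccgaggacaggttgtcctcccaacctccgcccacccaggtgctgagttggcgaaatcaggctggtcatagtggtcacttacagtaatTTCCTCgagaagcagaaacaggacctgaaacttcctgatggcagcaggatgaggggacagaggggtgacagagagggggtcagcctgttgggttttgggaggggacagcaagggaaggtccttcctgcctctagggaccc
Cd163 (chr4:158770524-158770823, plus strand): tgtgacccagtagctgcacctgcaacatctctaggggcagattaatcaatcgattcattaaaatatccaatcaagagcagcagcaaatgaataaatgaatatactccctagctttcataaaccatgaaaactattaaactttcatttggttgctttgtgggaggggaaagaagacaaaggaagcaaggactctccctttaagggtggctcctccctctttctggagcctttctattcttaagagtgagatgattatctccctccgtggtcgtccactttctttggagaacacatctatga
A window was on hand for 8 of the 9 genes, all except C1qc. GAGGAA on either strand was in 6 of them (Cd68, Mrc1, Csf1r, Lyz2, C1qb and Adgre1) and in neither Cd163 nor C1qa, against 27.6% of 33469 rat promoter windows of the same length. TGCTGA (reverse complement TCAGCA), a core of sites bound by MAF factors, was in 4 of the 8 windows (Cd68, C1qa, C1qb and Adgre1) and in 18.4% of all, and no match of one motif overlapped a match of the other in these 8 windows. These are matches of letters in a short window and not evidence of binding. In the RefSeq gene order, C1qa, C1qc and C1qb neighbour each other.

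Library totals ran from 12057180 to 24197244 counts, and the lowest count of any of the 9 genes in any library was 86. All 9 passed the filter on low counts in every fit. Together they took 0.0361% to 0.146% of a library's counts. In 3 animals (Sham-H replicate 6, PAB-H replicate 2 and AOB-H replicate 1) the RV and LV libraries differed in the direction opposite to the other 30 animals over 50 chamber genes, so these are called the libraries labelled RV or LV, and results that moved without them are given both ways. The samples labelled RV carry LV in a tissue field, and the study's sample sheet exchanges the Spt libraries of AOB-F replicates 1 and 2. The files name 3 library series, which differ in part between chambers and stages. Ventricular cardiomyocyte markers (6 genes) summed to 46620 to 88520 CPM (counts scaled to library size, TMM), and the 9 macrophage genes to 365 to 1383 CPM. B cell markers stayed at or under 2.05 CPM and neutrophil markers at or under 22.9 CPM in every library.

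By FPKM, which accounts for gene length, the C1q chains and Lyz2 were the most abundant of the 9 in the LV of the 12 sham animals. C1qa had 119 ± 22.4 FPKM (SD, n = 12), C1qc 113 ± 20.4, Lyz2 103 ± 18.3 and C1qb 78.9 ± 15.4. The first 3 differed by less than their SDs. Csf1r followed at 17.9 ± 2.96 FPKM, Cd68 at 12.5 ± 2.50, Mrc1 at 9.68 ± 1.89, Cd163 at 8.07 ± 1.956 and Adgre1 at 4.19 ± 0.850. The gap between Mrc1 and Cd163 was smaller than their SDs, and each other step in this lower range was larger. Across the 21 groups of condition and chamber, each of the 9 genes had its highest mean in AOB-F LV, between 2.06-fold (C1qc) and 3.32-fold (Lyz2) above its lowest group. For Cd163 this first place was within the spread, at 46.5 ± 3.54 CPM (SD, n = 4) in AOB-F LV against 41.5 ± 9.38 CPM (n = 3) in Sham-LF LV. For Cd68, Csf1r, Adgre1 and the C1q chains, the group in second place was also a sham group, Sham-RF LV. Its mean lay above the lowest AOB-F LV library for Cd68, Csf1r, C1qa, C1qc and Adgre1. Mean Csf1r, for example, was 94.17 CPM in AOB-F LV and 83.18 CPM in Sham-RF LV. The lowest group lay in the Spt for 8 of the 9 genes and in the RV for Cd68.

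The first comparison asked whether the chambers of sham hearts differ. All 9 genes were lower in the RV and in the Spt than in the LV. In the RV, Cd68, Csf1r and Adgre1 passed the test (edgeR's quasi-likelihood test on all 99 libraries, Benjamini-Hochberg adjusted over 11924 genes, threshold 0.05). In the Spt, Csf1r, Cd163 and Adgre1 passed it. Of all genes tested, 4.37% were called lower in the RV and 1.33% lower in the Spt than in the LV. The median log2 difference of the 9 genes was -0.29 for RV against LV, where that of all genes was -0.0099, and -0.34 for Spt against LV, where that of all genes was 0.0024. In bulk tissue, fewer macrophages and less RNA per macrophage cannot be told apart.

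Among the general markers, Cd68 ranged over the 12 sham animals from 9.00 to 18.8 CPM in the LV (median 15.8), from 6.91 to 15.3 in the Spt (median 10.9) and from 8.81 to 14.8 in the RV (median 11.0). The chambers overlapped, but within an animal Cd68 was lower in the RV than in the LV in 12 of 12. Its log2 difference was -0.45 ± 0.14 (SE, adjusted p = 0.0252, edgeR). Csf1r ran from 49.8 to 86.3 CPM in the LV, 36.8 to 68.4 in the Spt and 42.3 to 61.0 in the RV. It was lower in the Spt than in the LV in 11 of 12 animals (-0.39 ± 0.098, adjusted p = 0.0130, edgeR) and lower in the RV in 9 of 12 (-0.31 ± 0.098, adjusted p = 0.0319). Adgre1 was lower in the RV in 10 of 12 animals (-0.40 ± 0.13, adjusted p = 0.0352, edgeR) and lower in the Spt in 11 of 12 (-0.47 ± 0.13, adjusted p = 0.0323). Lyz2 did not pass in either chamber, with -0.26 ± 0.18 in the RV (edgeR, adjusted p = 0.345).

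Of the scavenger receptors, Cd163 had from 24.6 to 50.5 CPM in the LV (median 30.6), 18.4 to 34.4 in the Spt (median 22.7) and 15.4 to 37.4 in the RV (median 26.1). The Spt difference of -0.49 ± 0.14 was called (adjusted p = 0.0297, edgeR), and 10 of 12 animals showed its direction, also in the RV (-0.37 ± 0.14, adjusted p = 0.0631). Mrc1 was lower in the Spt by -0.30 ± 0.13 (edgeR, adjusted p = 0.232) and in the RV by -0.21 ± 0.13 (adjusted p = 0.288), neither of which was called. The C1q chains had differences between -0.23 and -0.34 in both comparisons without a call. With library series as a covariate, the Spt difference was -0.08 for C1qa, -0.18 for C1qb and -0.09 for Lyz2, which was -0.26 without it. Spt and RV did not differ for any of the 9 genes beyond the spread (edgeR, adjusted p of at least 0.649, and 0 genes at an unadjusted p under 0.05), and DESeq2 called none either.

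**Figure D1:**
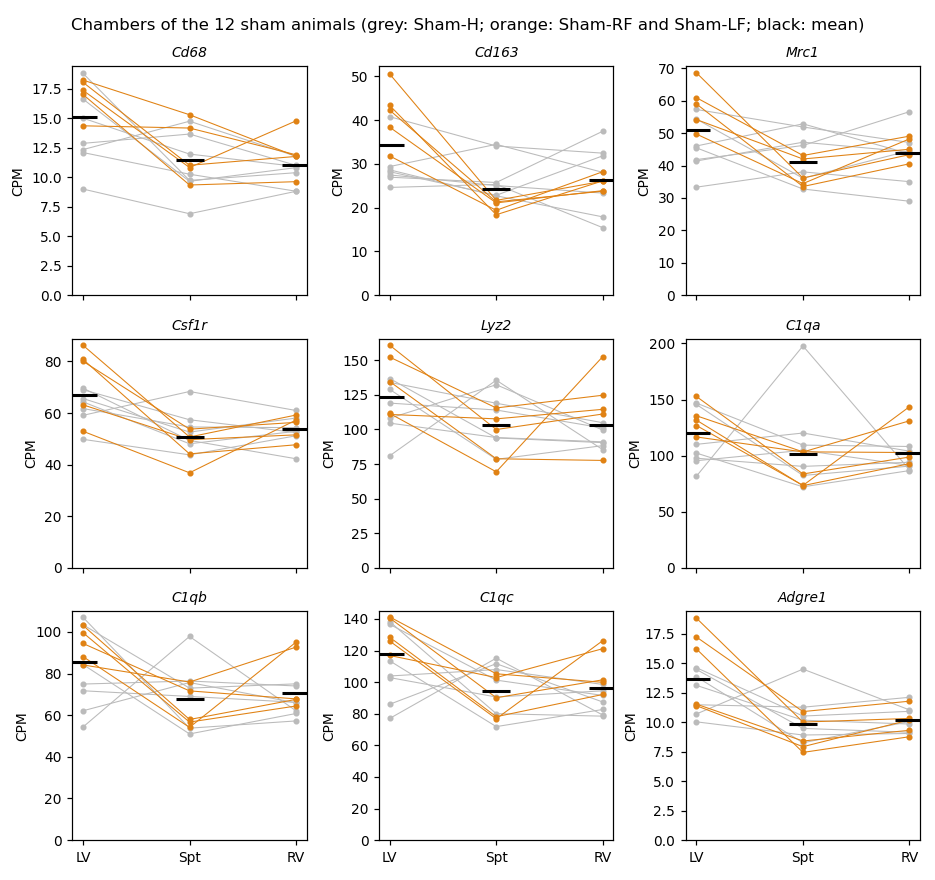
CPM of each of the 9 genes (1 panel per gene, linear axis from 0) in LV, Spt and RV of the 12 sham animals, where each line joins the libraries of 1 animal (grey for Sham-H, orange for Sham-RF and Sham-LF) and the black bar is the mean. For Cd68 all 12 lines end lower in the RV than they start in the LV, and the single C1qa point of 198 CPM is the Spt of Sham-H replicate 5.

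The chambers of an animal are paired by its replicate number. With the animal as a block, 5 of the 9 genes were called lower in the RV (Cd68, adjusted p = 0.0053, Adgre1, 0.0071, Csf1r, 0.0086, Cd163, 0.0132, and C1qc, 0.0420, edgeR) and 4 in the Spt, Cd68 joining with an adjusted p of 0.0238. That fit called 8.29% of all genes lower in the RV and 2.63% lower in the Spt. Single animals decided the calls of the unpaired fit. For RV against LV, 0 of the 9 genes were called without Sham-H replicate 1, Sham-RF replicate 1 or 2 or Sham-LF replicate 3, and 1 without Sham-LF replicate 1. For Spt against LV, 0 were called without Sham-RF replicate 1 or Sham-LF replicate 3, and 1 without Sham-RF replicate 2 or Sham-LF replicate 1 or 2. Without the 3 animals whose RV and LV go against their labels, 4 genes were called in each comparison.

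Other genes linked to macrophages and to their supply shifted the same way in part. The macrophage ligands Cx3cl1 (fractalkine) and Il34 were lower in the RV than in the LV, by -0.30 ± 0.083 (adjusted p = 0.0150, edgeR) and -0.33 ± 0.096 (adjusted p = 0.0190), and 2 of the 5 ligand genes tested were thus called. Of 10 further genes of resident macrophages, 2 were lower in the RV, namely Maf, a transcription factor, at -0.26 ± 0.081 (adjusted p = 0.0311), and Siglec1, a sialic acid receptor, at -0.41 ± 0.13 (adjusted p = 0.0340). In the Spt, Maf was lower by -0.36 ± 0.082 (adjusted p = 0.0052), and of 9 complement partners of C1q 3 were lower there, C1r, C1s and Serping1, the C1 proteases and their inhibitor. In the RV, C1r was lower (-0.25 ± 0.067, adjusted p = 0.0128) and C4a, a C4 gene, was higher (1.33 ± 0.40, adjusted p = 0.0257). Apoe, a lipid carrier, and Ccr1, a chemokine receptor, were also called lower in the Spt. Of 15 myeloid genes, 0 were called in the RV (5 at an unadjusted p under 0.05) and 1 in the Spt, Laptm5, a lysosomal membrane protein, at -0.37 ± 0.094 (adjusted p = 0.0153). Markers of other cells moved as well. Endothelial markers had a median of -0.31 in the RV with 1 of 4 called, and fibroblast markers a median of -0.39 in the Spt with 3 of 5 called. Among the Sham-RF and Sham-LF animals, ventricular cardiomyocyte markers summed to 60430 to 75050 CPM in the LV. They summed to 73260 to 86360 CPM in the RV and 69800 to 84140 CPM in the Spt, and were lowest in the LV of each of these animals. The part of these other cells in the differences was not tested.

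The second comparison set failing hearts with aortic banding against their age-matched shams. In AOB-F LV, the chamber under load, Lyz2 was 2.40-fold higher than in Sham-LF LV, and the other 8 genes were also higher on average. The Lyz2 difference of 1.26 ± 0.31 on the log2 scale was the single call among the 9 (adjusted p = 0.0470, edgeR), where 0.837% of the 11703 genes tested were called in either direction. At an unadjusted p under 0.05, 8 of the 9 genes were higher, all except Cd163, against 7.03% of all genes. The median log2 difference of the 9 was 0.59 and that of all genes 0.0138. All AOB-F values lay above all sham values for Lyz2 and Adgre1, and this held for 5.67% of all genes.

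Lyz2 had 436, 176, 139 and 383 CPM in the 4 AOB-F LV libraries and 111, 112 and 135 CPM in the 3 Sham-LF libraries. AOB-F replicates 1 and 4 were high, while replicate 3 lay close to the shams. Cd68 followed the same order, with 32.0, 19.8, 16.2 and 26.6 CPM against 14.4, 17.4 and 17.0. Here replicate 3 fell among the shams, and the log2 difference was 0.55 ± 0.23 (adjusted p = 0.289, edgeR). Adgre1 had 24.1, 17.3, 16.4 and 25.6 CPM against 11.5, 11.4 and 16.2, a log2 difference of 0.68 ± 0.21 (adjusted p = 0.0994). Its AOB-F libraries all lay above the shams, replicate 3 barely so. Csf1r had 112, 83.7, 80.0 and 101 CPM against 63.2, 52.9 and 80.8 CPM, a difference of 0.53 ± 0.17 (adjusted p = 0.121), and again replicate 3 was inside the sham range.

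Of the scavenger receptors, Mrc1 had 104, 75.7, 61.2 and 111 CPM in AOB-F LV against 54.2, 49.7 and 68.7 CPM in Sham-LF LV, a log2 difference of 0.62 ± 0.22 (adjusted p = 0.175, edgeR). Cd163 had 45.5, 48.2, 42.0 and 50.2 CPM against 42.2, 31.8 and 50.5 CPM. These 4 libraries were alike and lay inside the sham range, with a difference of 0.17 ± 0.25 (95% interval -0.34 to 0.68, adjusted p = 0.922, edgeR), which was 0.01 without Sham-LF replicate 2 and 0.34 without Sham-LF replicate 3. The difference between both receptors was not tested, and the ratio of Mrc1 to Cd163 overlapped between AOB-F LV (1.46 to 2.29) and Sham-LF LV (1.283 to 1.563). The C1q chains were higher by 0.53 to 0.60, with adjusted p between 0.196 and 0.234. C1qa, for instance, had 237, 170, 128 and 211 CPM against 117, 127 and 132 CPM, and replicate 3 was again within the shams.

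The Lyz2 call rested on single libraries, although its log2 difference stayed between 0.98 and 1.49 when any 1 animal was left out. Its adjusted p was 0.344 without AOB-F replicate 1, 0.262 without replicate 4, 0.231, 0.177 and 0.161 without Sham-LF replicates 1, 2 and 3, and 0.0566 without the 3 animals with opposite RV and LV, whereas without AOB-F replicate 3 it was 0.00335 and 5 of the 9 genes were called (Lyz2, Mrc1, Csf1r, C1qa and Adgre1). Cardiomyocyte markers moved with it, at 46620, 59160, 58910 and 50220 CPM in AOB-F LV against 65280, 75050 and 60430 CPM in Sham-LF LV, lowest in the 2 animals with the most Lyz2. Fibroblast markers moved too, at 2218, 2293, 2237 and 2571 CPM against 1906, 2061 and 2001 CPM, and replicate 4 held 531 CPM of atrial markers where the other 6 libraries held 10.3 to 43.3. The part of these cells was not tested. Neutrophil markers, which include cells rich in Lyz2, summed to 11.2, 5.25, 5.50 and 9.85 CPM against 5.46, 4.31 and 4.82 CPM, with Csf3r, Cxcr2 and Mpo each under 1 CPM on average. T cell markers summed to 7.27 to 11.7 CPM against 10.4 to 15.0 CPM.

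Further genes linked to macrophages were higher in AOB-F LV at an unadjusted p under 0.05 without passing the adjusted threshold. Which cells held their transcripts was not tested. Of 15 myeloid genes, 8 were higher and 0 lower, with a median of 0.60. Mpeg1, a pore-forming protein of phagocytes, was at 1.202 ± 0.33 (adjusted p = 0.0706, edgeR) and Cd14, the lipopolysaccharide co-receptor, at 0.84 ± 0.25 (adjusted p = 0.0937). Of 7 genes of lipid-handling macrophages, 4 were higher, among them Gpnmb, a lysosomal membrane glycoprotein, at 1.10 ± 0.29 (adjusted p = 0.0605), Trem2, a lipid receptor, at 1.27 ± 0.34 (adjusted p = 0.0676), and Spp1, osteopontin, at 2.56 ± 0.89 (adjusted p = 0.162). Of 10 resident macrophage genes, 3 were higher (Lyve1, Vsig4 and Siglec1), and of 9 complement partners 6, led by the inhibitor Serping1 at 0.56 ± 0.15 (adjusted p = 0.0676). Csf1, which encodes the ligand of CSF1R, was the single ligand of 5, at 0.50 ± 0.15 (adjusted p = 0.101). Of the 4 monocyte and inflammatory genes tested, 0 were past that level. Of 6 antigen presentation genes, 0 were higher at that level, and Cd74, the invariant chain of MHC class II, had -0.36 ± 0.17 (adjusted p = 0.351, edgeR).

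In AOB-F Spt the 9 genes were again all higher on average, by a median of 0.43. Lyz2 had 234, 121, 222 and 104 CPM against 108, 69.4 and 78.8 CPM in Sham-LF Spt, a log2 difference of 0.98 ± 0.30 (adjusted p = 0.135, edgeR). Replicates 1 and 3 were high here, whereas replicates 1 and 4 were high in the LV and the RV. Cardiomyocyte markers were lowest in the same 2 Spt libraries, at 60130, 66130, 55780 and 65040 CPM against 69800, 84140 and 71720 CPM, and their part was not tested. By the study's sample sheet, which exchanges Spt replicates 1 and 2, these 2 libraries would be replicates 2 and 3. Csf1r had 70.3, 53.7, 72.8 and 51.1 CPM against 49.7, 36.8 and 44.1 CPM, and its groups did not overlap (0.49 ± 0.17, adjusted p = 0.188). At an unadjusted p under 0.05, 4 of the 9 genes were higher (Lyz2, Csf1r, C1qc and Adgre1), against 5.71% of all genes. None of the 9 passed the adjusted test, which called 0.232% of all genes, while DESeq2 called Lyz2 (adjusted p = 0.0487), as edgeR did without AOB-F replicate 4. Every AOB-F library lay above every sham for 3 of the 9 (Cd163, Csf1r and Adgre1) and for 5.4% of all genes.

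In AOB-F RV, Lyz2 had 235, 96.0, 89.2 and 200 CPM against 115, 153 and 77.6 CPM in Sham-LF RV. Replicates 1 and 4 again lay above the shams and the others within their range, with cardiomyocyte markers at 55140, 74840, 75830 and 61710 CPM against 86360, 79910 and 75660 CPM, and the log2 difference was 0.45 ± 0.35 (adjusted p = 0.542, edgeR). The C1q chains had differences there from -0.10 to -0.05. At an unadjusted p under 0.05, 0 of the 9 genes were higher, against 6.91% of all genes. The difference between the LV and RV responses itself was not called for any gene of the 9 (edgeR interaction, adjusted p of at least 0.926). It was 0.82 ± 0.47 for Lyz2, 0.70 ± 0.38 for C1qb and -0.01 ± 0.36 for Cd163.

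**Figure D2:**
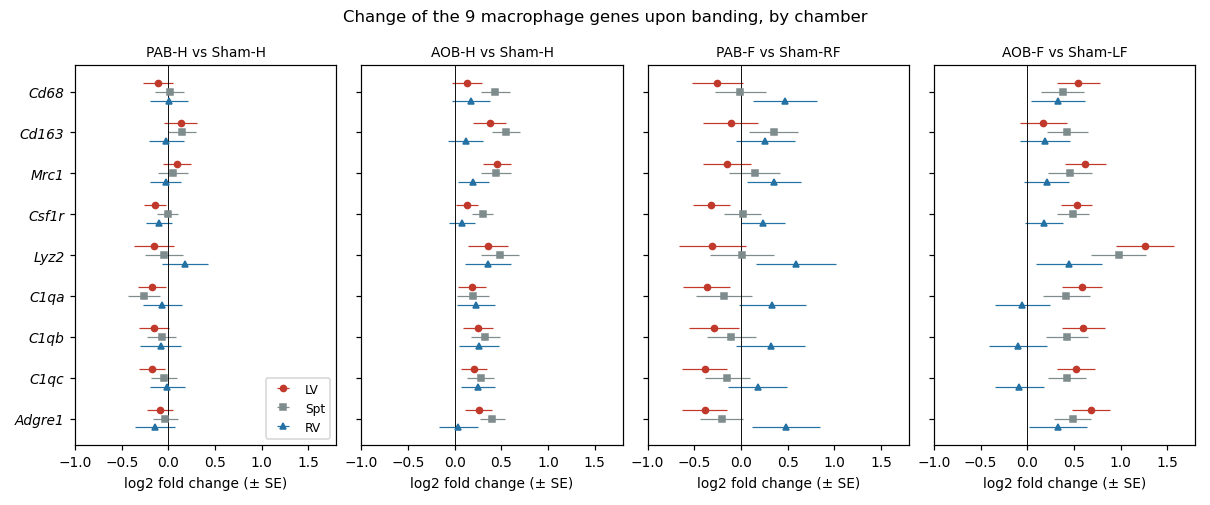
Log2 fold change ± SE (edgeR) of each of the 9 genes against the matching shams, 1 panel per banding group, with LV in red, Spt in grey and RV in blue. Lyz2 in AOB-F LV lies farthest from 0 at 1.26, PAB-H lies around 0 in all chambers, and in PAB-F the RV lies to the right of 0 and the LV to the left for every gene.

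At the compensated stage of aortic banding the 9 genes were higher on average in all 3 chambers, most in the Spt. There, 7 of the 9 were higher at an unadjusted p under 0.05, all except C1qa and C1qc, against 5.65% of all genes. None passed the adjusted test, in which the smallest adjusted p among them was 0.187 (edgeR), and DESeq2 called none. Cd163 ranged from 26.7 to 70.4 CPM in AOB-H Spt (median 36.5) and from 22.7 to 34.4 CPM in Sham-H Spt (median 25.3), a log2 difference of 0.55 ± 0.15 (adjusted p = 0.187). Of 7 AOB-H libraries, 5 lay above every sham. Lyz2 ranged from 85.2 to 272 CPM (median 137) against 78.4 to 136 CPM (median 114), with 4 of 7 libraries above the shams and a difference of 0.49 ± 0.20 (adjusted p = 0.260). Ranges that did not overlap were seen for 0 of the 9 and for 0.0172% of all genes.

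Among the compensated AOB-H animals, replicate 3 held the highest value of each of the 9 genes in both the Spt and the LV. Its Spt had 100.5 CPM of Mrc1, where the other 6 AOB-H libraries had 49.0 to 59.7, and without this animal 3 of the 9 genes were higher in the Spt at an unadjusted p under 0.05 and the median fell from 0.40 to 0.26, while leaving out any other animal gave 5 to 9 genes. Cardiomyocyte markers were lower here too, at 54410 to 73360 CPM in AOB-H Spt against 66590 to 88520 CPM in Sham-H Spt, and their part was not tested. In the LV, Mrc1 (0.45 ± 0.15, adjusted p = 0.950, edgeR) and Cd163 (0.38 ± 0.17, adjusted p = 0.956) were higher at an unadjusted p under 0.05, against 2.2% of all genes. The LV value differed between library series, with a median of the 9 of -0.06 in series 1, 0.52 in series 2 and 0.08 in series 3. The LV library of replicate 3 was of series 2, so series and single animals cannot be told apart here. Without replicate 3 the LV median fell from 0.25 to 0.09, and over all animals left out in turn the count of 2 genes past that level ran from 1 to 3. In AOB-H RV, 0 of the 9 were higher at that level, against 0.597% of all genes. The highest library there, with 229 CPM of Lyz2 where the other 6 had 72.4 to 137, was the library labelled RV of replicate 1, an animal whose RV and LV go against their labels. Without the 3 such animals, the RV differences of the 9 ran from -0.18 to 0.13, where they had been 0.04 to 0.36, and the counts past that level were the same in the LV (2) and the Spt (7).

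Further genes were higher in AOB-H Spt at an unadjusted p under 0.05, none of them past the adjusted threshold. Of 9 complement partners, 6 were higher, led by C3ar1, the receptor for C3a, at 0.85 ± 0.21 (adjusted p = 0.187, edgeR), and C4b, which is cleaved downstream of C1q, at 0.72 ± 0.22 (adjusted p = 0.207). Of 7 lipid-associated genes, Gpnmb (0.65 ± 0.18, adjusted p = 0.187) and Spp1 were higher, and Fabp5, a fatty acid-binding protein, had -0.27 ± 0.13 (adjusted p = 0.306). Among 15 myeloid genes 4 were higher, and of 10 resident genes 2, Siglec1 and F13a1.

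Pulmonary banding was compared with the same young shams and with Sham-RF. At the compensated stage the 9 genes lay between -0.26 and 0.18 in the 3 chambers, and the smallest adjusted p was 0.790 (edgeR). Without the 3 animals with opposite RV and LV they lay between -0.30 and 0.23, with 0 past an unadjusted p of 0.05. In PAB-F RV, the chamber under load, all 9 were higher on average, from 0.18 ± 0.32 for C1qc to 0.59 ± 0.43 for Lyz2, without a call (adjusted p of at least 0.7102). Lyz2 had 84.4, 268 and 181 CPM in the 3 PAB-F libraries and 111 and 125 CPM in the 2 Sham-RF libraries. Replicates 2 and 3 lay above both shams and replicate 1 below both, and the other 8 genes had this same order against the shams. At an unadjusted p under 0.05, 0 of the 9 were higher, against 4.0% of all genes. The median of the 9, 0.34 with all animals, was 0.61 without PAB-F replicate 1 (3 genes past that level), 0.17 without replicate 2 and 0.19 without replicate 3 (0 genes in both), and Lyz2 was at 0.94, 0.17 and 0.59 in these fits. Cardiomyocyte markers were at 71120, 62360 and 60200 CPM in PAB-F RV against 73260 and 75070 CPM, lowest in the 2 animals with high macrophage genes, and replicate 3 held 1768 CPM of atrial markers where the other 4 libraries held 13.6 to 49.5. Their part was not tested.

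In PAB-F LV, all 9 genes were lower on average, from -0.11 to -0.39. Adgre1, for example, had 12.9, 13.3 and 15.2 CPM against 18.8 and 17.2 CPM in Sham-RF LV (-0.39 ± 0.24, adjusted p of 1.0000, edgeR). Every PAB-F library lay below both shams for 8 of the 9, all except Cd163, where 10.5% of all genes were lower without overlap in this small comparison. Summed, the 9 genes had 618, 596 and 632 CPM in PAB-F LV and 783 and 739 CPM in Sham-RF LV. The other older shams, Sham-LF LV, had 614, 616 and 728 CPM, so PAB-F LV was near the lower of these. In the RV minus LV interaction of PAB-F, Adgre1 had the smallest p of the 9 (0.88 ± 0.41, adjusted p = 0.988), and none was called. Antigen presentation genes were lower in PAB-F at an unadjusted p under 0.05, 4 of 6 in the LV (0.82% of all genes) and 5 of 6 in the Spt (2.14% of all genes), such as RT1-Da, an MHC class II chain, with -0.64 ± 0.22 (adjusted p of 1.0000) and -0.64 ± 0.19 (adjusted p = 0.816). The 9 macrophage genes had a median of -0.0069 in PAB-F Spt. Which cells held the antigen presentation transcripts was not tested.

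Between the stages, the AOB response in the LV was larger at failure for Lyz2 by 0.91 ± 0.37 (edgeR interaction, adjusted p = 0.561) and differed by -0.20 ± 0.30 for Cd163, and no interaction of stage was called for any of the 9 genes in any chamber. Age was read from the shams. In the LV, Cd163 (29.4 ± 5.23 CPM, SD, n = 7, in Sham-H and 41.2 ± 6.87 CPM, n = 5, in the older shams) and Mrc1 were higher in older animals at an unadjusted p under 0.05, against 2.77% of all genes. The Cd163 difference was 0.48 ± 0.19 (adjusted p = 0.553, edgeR). With library series as a covariate it was 0.30 ± 0.16 and that of Mrc1 0.25 ± 0.16, and 0 of the 9 were past that level. Within library series 2 alone, the Cd163 difference was 0.58 ± 0.15 (adjusted p = 0.559, edgeR) and that of Mrc1 0.35 ± 0.20. In that fit Cd163, C1qa and C1qc were past the unadjusted level and none was called. Over all animals left out in turn the LV count ran from 0 (without Sham-LF replicate 3) to 3. In the Spt, Cd163 went the other way, with 20.3 ± 1.41 CPM in older and 27.2 ± 4.99 CPM in young shams (-0.42 ± 0.17, adjusted p = 0.183), where 9.72% of all genes were lower at that level, and the count of 1 gene ran from 0 (without Sham-RF replicate 1) to 2 when 1 animal was left out. The older LV libraries were all of series 2 and the older Spt libraries all of series 3.

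The ratio of Lyz2 to Cd163, read within a library, set the gene with the largest change in AOB-F LV against the one with the smallest, a pair chosen after their values were seen. Over the 99 libraries it ran from 2.56 to 9.57 with a median of 3.81. In AOB-F LV it was 9.57, 3.64, 3.30 and 7.62, against 2.62, 3.50 and 2.66 in Sham-LF LV. The 2 animals with the most Lyz2 held the high ratios. Ratios with other genes differed less. Lyz2 to Mrc1 had a geometric mean of 2.95 in AOB-F LV (2.27 to 4.18) and 2.08 in Sham-LF LV (1.96 to 2.24). Lyz2 to Cd68, another general marker, had 11.0 (8.53 to 14.4) and 7.28 (6.39 to 7.87), likewise without overlap. Lyz2 had the largest change of the 9 in AOB-F LV, so higher mean ratios to the other genes follow from that choice. The mean of both scavenger receptors to that of the 4 general markers, which include Lyz2, was 1.09 (0.880 to 1.27) and 1.35 (1.21 to 1.45). In AOB-F Spt the ratio of Lyz2 to Cd163 was 8.22, 4.93, 6.23 and 4.13 against 5.04, 3.57 and 3.63 in Sham-LF Spt. PAB-F RV replicate 2 had 8.16, where the other PAB-F and Sham-RF libraries of the RV had 4.25 to 5.21. The ratio also followed the library series at the compensated stage, where its LV mean was 5.25 ± 0.669 in series 1 (SD, 6 libraries), 3.54 ± 0.834 in series 2 (9 libraries) and 2.88 ± 0.404 in series 3 (6 libraries). The failure-stage LV libraries compared here all came from series 2.

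**Figure D3:**
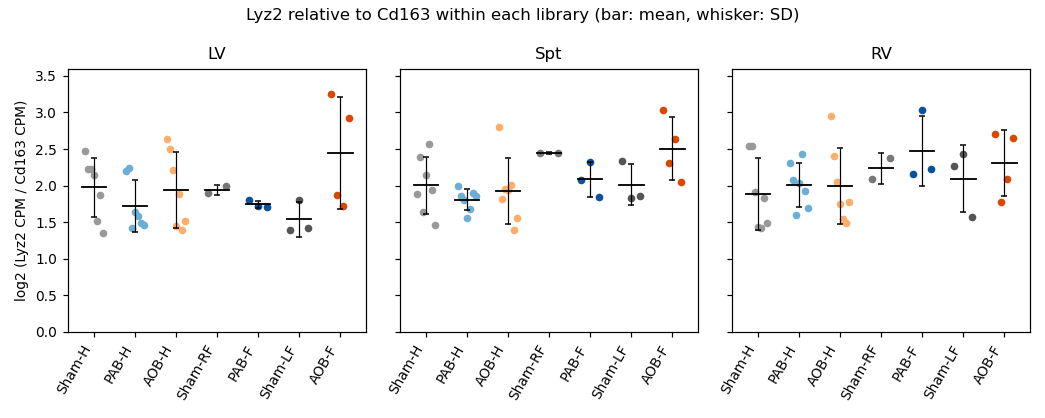
Log2 ratio of Lyz2 to Cd163 CPM in every library (points), by condition and chamber, with the mean (bar) and SD (whisker, n = 2 to 7). AOB-F LV spreads from 1.72 to 3.26 with 2 libraries above all others of that chamber, and Sham-LF LV lies between 1.39 and 1.81.

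The 9 genes varied together over the 99 libraries after centring log2 CPM within chamber and library series. The libraries share animals and conditions, so the correlations are descriptions. C1qb and C1qc had the highest (Pearson's r = 0.98), and the 3 C1q chains correlated at 0.96 to 0.98 with each other. Csf1r and Adgre1 followed at 0.90. Cd163 stood apart, with a median r of 0.65 to the other 8, the lowest to Cd68 (0.52) and the highest to Mrc1 (0.82), the other scavenger receptor. The deviation of the 9 genes from their group means was weakly shared between chambers of an animal, with r = 0.25 for LV and RV, 0.23 for LV and Spt and 0.41 for Spt and RV over 33 animals. All labels were kept as deposited for these values. One library departed within C1q, as Sham-H Spt replicate 5 had 198 CPM of C1qa and 115 CPM of C1qc, a ratio of 1.72, beside the lowest Cd68 of all 99 libraries (6.91 CPM), and all other libraries had a ratio below 1.2.

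**Figure D4:**
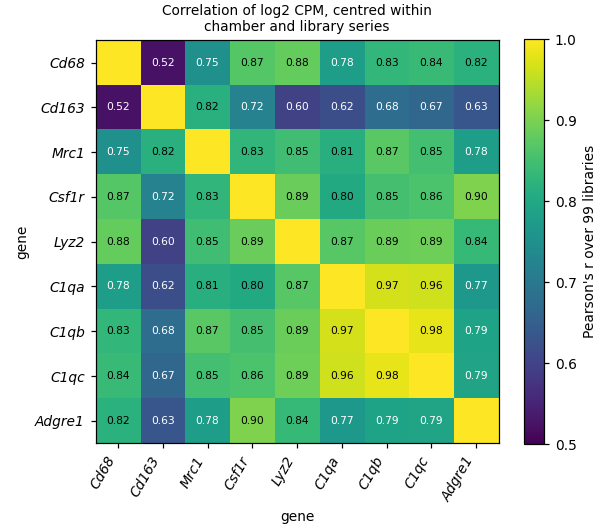
Pearson's r between the 9 genes over 99 libraries, from log2 CPM centred within chamber and library series (colour scale from 0.5 to 1). The C1q block reads 0.96 to 0.98, and the Cd163 row is the darkest, with 0.52 for Cd68.

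Among 10417 other genes, those most like the mean of the 9 over the 99 libraries were Tf (transferrin, r = 0.93), Ctss (cathepsin S, a lysosomal protease, 0.92), Fxyd2 (a regulator of the sodium pump, 0.91), Folr2 (folate receptor beta, a resident macrophage marker, 0.91) and Cd300le (0.90). Ctsb (cathepsin B), Alox5ap (the 5-lipoxygenase activating protein of leukotriene synthesis), Clec10a (a lectin of macrophages), Mfap5 (a microfibril protein) and Zfat made up the 10, down to r = 0.88. Centring within chamber alone kept 7 of these 10 among its own 10, and adding condition to the centring kept 6.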

How the data were processed

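Poly(A) RNA of LV, Spt and RV from 33 rats was sequenced with a directional single-end kit. The authors trimmed reads with Trim Galore, aligned them with STAR to Rnor6.0 with the UCSC annotation and counted them per gene with featureCounts, overlaps to several features disabled, and deposited raw counts with FPKM. Whether counting used strand is not given in the sources used here. From the deposited counts, libraries of 12057180 to 24197244 counts (median 17391374) were scaled by TMM and fitted with edgeR 4.0.16 (R 4.3.3), 1 fit per chamber (33 libraries) for banding, stage and age and 1 fit of all 99 for chambers. filterByExpr removed low genes, quasi-likelihood p-values were adjusted by Benjamini-Hochberg over all genes tested, and SE is the log2 difference divided by the square root of F. The deposited FPKM, scaled by gene length and library size, were used to compare genes. CPM are TMM-scaled. DESeq2 1.42.0 and other settings were alternatives. Named are all 9 genes and, from 7 lists of other genes linked to macrophages, up to 4 of lowest p per comparison. The 10 most alike are those with the highest r among genes of at least 1 CPM, without the provisional symbols (LOC, RGD) and miRNA genes. The members and lists were chosen with earlier results of these data known. Replicate numbers mark the animal across chambers. Deviations of LV and RV libraries of one animal correlated with a median r of 0.52 over all genes. Replicates are separate animals. On simulated counts, 66.3% of 2-fold (|log2| 1) and 90.0% of 4-fold changes were called for AOB-F against Sham-LF in LV (11592 genes) and 92.0% of 2-fold changes for RV against LV (11804 genes). Timd4, Stab1, Ccr2, Cd79a and Hba-a1 were not analysed here. No per-sample column was left unmapped.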

Additional observations from a re-analysis of the deposited data

Results flagged for a closer look

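Dixon's test on each gene in each group of 4 to 10 animals gave 10 values far from their groups in 108 tests, and chance gives about 1 in 20. Most came from 1 animal, AOB-H replicate 3. Its LV held 25.3 CPM of Cd68, 104 CPM of Csf1r (103.5), 303 CPM of Lyz2 (302.7) and 22.7 CPM of Adgre1, each far above the other 6 AOB-H libraries of that chamber. Its Spt held 70.4 CPM of Cd163, 101 CPM of Mrc1 (100.5), 211 CPM of C1qa (211.3) and 151 CPM of C1qb (151.3), likewise far above the others. The RV of the same animal was not set apart by this test. In Sham-H LV, replicate 7 held 40.76 CPM of Cd163, above the other 6. In PAB-H RV, the library labelled RV of replicate 2, an animal whose RV and LV go against their labels, held 101.0 CPM of C1qb.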

How the results depend on the processing

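The number of the 9 genes called was recomputed for 28 comparisons, and 515 of these values stayed within 1.5 times the reported count while 26 did not. The reported count was above 0 only for AOB-F against Sham-LF in LV and for RV and Spt against LV in shams. Elsewhere, staying within that range meant that a count of 0 stayed 0. The 26 lay in these comparisons and in AOB-F against Sham-LF in Spt. For AOB-F against Sham-LF in LV (1 called), 0 genes were called with no filter on low counts (Lyz2, adjusted p = 0.0550), without the 3 animals with opposite RV and LV, with the 2 groups alone (0.344), in library series 2 alone (0.0896) and with the replicate number as a block (0.658), and 0 to 5 when 1 animal was left out. In that comparison RLE scaling, library series as a covariate, 1 fit of 99 libraries and DESeq2 (0.00772) kept the call. For AOB-F against Sham-LF in Spt (0 called), DESeq2 called 1, the block called 2 (Lyz2 and Csf1r), and leaving out 1 animal gave 0 to 1. For RV against LV in shams (3 called), the 36 sham libraries alone gave 5, the pairing by animal as a replicate block gave 5, and leaving out 1 animal gave 0 to 4. For Spt against LV (3 called) leaving out 1 animal gave 0 to 3, and with library series as a covariate 2 were called.
Between banding and sham groups the replicate numbers do not pair animals, since these groups hold different animals, and not every same-numbered pair correlated over 0.1. At the compensated stage, 6 of 7 pairs did so in the LV and in the RV. Same-numbered libraries of a chamber share a library series there, so the block also carries the series. The block moved no other count by over 1.5 times. Single fold changes turned sign, with an unadjusted p under 0.05 in the reported or the alternative fit and no adjusted call in either, within single library series. AOB-H against Sham-H in LV gave -0.18 for Cd163 within library series 1. AOB-H against Sham-H in RV, within library series 3 (2 animals a group), gave -0.46 for Cd68, -0.31 for Cd163, -0.39 for Csf1r, -0.33 for Lyz2, -0.48 for C1qa, -0.54 for C1qb, -0.48 for C1qc and -0.67 for Adgre1. The cause was not tested. Over single genes, 4578 values kept direction and side of the threshold. Among the rest, 220 were classed as moved, 45 as weaker and 19 as stronger, and 9 were the turns of sign given above. The failure stage has 2 to 4 animals a group.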
